A study of Mus musculus with 18 samples.

Results

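The data described here are RNA-seq counts that bear on 1 question: how the change in gene expression between day 2 and day 6 of retinoic acid differentiation differed between 2 lines of mouse embryonic stem cells (ESCs), one parental and the other, by its label, a conditional knockout of the transcription factor Oct1. The comparison is an interaction contrast. The change from day 2 to day 6 in parental cells, called the parental course, was subtracted from the same change in Oct1 cKO cells, called the cKO course. A value above 0 means that a gene rose more, or fell less, in the cKO cells. The contrast uses 12 of the 18 libraries of the series, chosen by the source labels WT-2, WT-6, KO-2 and KO-6, with 3 libraries in each group. The other 6 libraries are of day 0. They entered the count filter, the scaling and the estimate of the spread between libraries, but not the contrast.

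All groups carry the label ESC, which names the starting cells. WT-2 and WT-6 are labelled Parental, KO-2 and KO-6 are labelled Oct1_cKO, and the number is the day of differentiation. Both genotypes were grown on 0.01% gelatin in medium with 1.5 ug/ml retinoic acid, so no group at days 2 and 6 lacks the agent. The labels do not say which part of the gene was deleted, how the deletion was induced, how many clones each line represents, or whether replicate libraries derive from independent cultures. The p-values below therefore weigh differences only against the spread of these libraries, and that spread may be technical. Total counts of the 12 libraries ran from 14426904 to 19296966, and 18352 of 21995 genes had enough counts to be tested.

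Oct1 is encoded by Pou2f1, a POU-domain protein that binds the octamer element and is related to the pluripotency factor Oct4 (Pou5f1). Retinoic acid enters the nucleus, binds its receptors and drives ESCs out of pluripotency. Cells then lose epithelial contacts built on E-cadherin (Cdh1) and can take up neural, mesenchymal and extraembryonic fates. An interaction contrast is suited to such a course because it removes what already differed between the lines at the first time point.

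Pou2f1 (chromosome 1, 165865154 to 166002678 in GRCm38) was read first as a check of the labels. The 3 parental libraries of day 2 held 105, 97.9 and 106 CPM (counts scaled to library size), and those of day 6 held 64.9, 61.1 and 64.2 CPM. The cKO libraries held 59.5, 60.8 and 58.8 CPM at day 2 and 36, 45.3 and 44.5 CPM at day 6. At each day all 3 cKO libraries lay below all 3 parental libraries, and the transcript was reduced rather than lost. Its interaction was 0.19 ± 0.15 on the log2 scale (± is the standard error throughout, n = 3 libraries a group), with an adjusted p of 0.284 in edgeR's quasi-likelihood test, the source of every adjusted p below. In a fit of the 12 libraries alone the value was 0.28 and was called (adjusted p = 0.00228). A count over the whole gene cannot show whether a deleted exon is missing.

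The 2 courses had much in common and yet differed at most genes. The parental course was called (adjusted p under 0.05) at 14603 genes, 79.6% of those tested, with 42.6% up and 36.9% down. The cKO course was called at 14903 genes, 81.2%, with 39.6% up and 41.6% down. Of the 12369 genes called in both, 10115 moved the same way, which is 81.8%. Pearson's r between the courses was 0.726 across the 18352 genes, as a description only, since genes are not independent and 1 set of scaling factors and 1 fit served both. The interaction was called at 11657 genes, 63.5% of those tested, of which 5777 (31.5%) lay above 0 and 5880 (32.0%) below. With this background a called interaction alone does not set a gene apart, so direction and size are given for each group below, and the 31.5% and 32.0% are the background of every list count.

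Genes were sorted by their courses. The courses went opposite ways at 2254 genes (12.3% of those tested) and went the same way by different amounts at 5933 (32.3%). In 3433 genes with a called interaction only 1 of the courses was called. At 4182 genes (22.8%) both courses went the same way and no difference between them was called. A missing call does not show that the courses were equal: the 95% interval of the interaction lay within 1 on the log2 scale at 2227 of the 4182, while 738 of them had an estimated interaction of at least 1 in size. Where parental cells raised a gene at least 2-fold (2321 genes with a mean of at least 1 log2 CPM), the cKO cells made a median of 75.1% of that log2 change, with quartiles of 23.5% and 131.9%. Among 1846 genes that parental cells lowered at least 2-fold, the median was 73.5%. These genes were picked on the parental course. Picked on the cKO course instead, with the same limits, parental cells made a median of 51.2% of the cKO change at 2936 rising and 55.6% at 2575 falling genes.

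Within a class, genes were ranked by the size of the interaction only where they had a mean of at least 1 log2 CPM, at least 10 counts in every group and no overlap between the libraries of the 2 days in a called course, leaving out predicted genes. Scarcer genes can exceed those named first, as Ifit1 does, an interferon-induced antiviral protein with an interaction of 7.24 ± 0.96 in the class where only the cKO course was called.

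**Figure D1:**
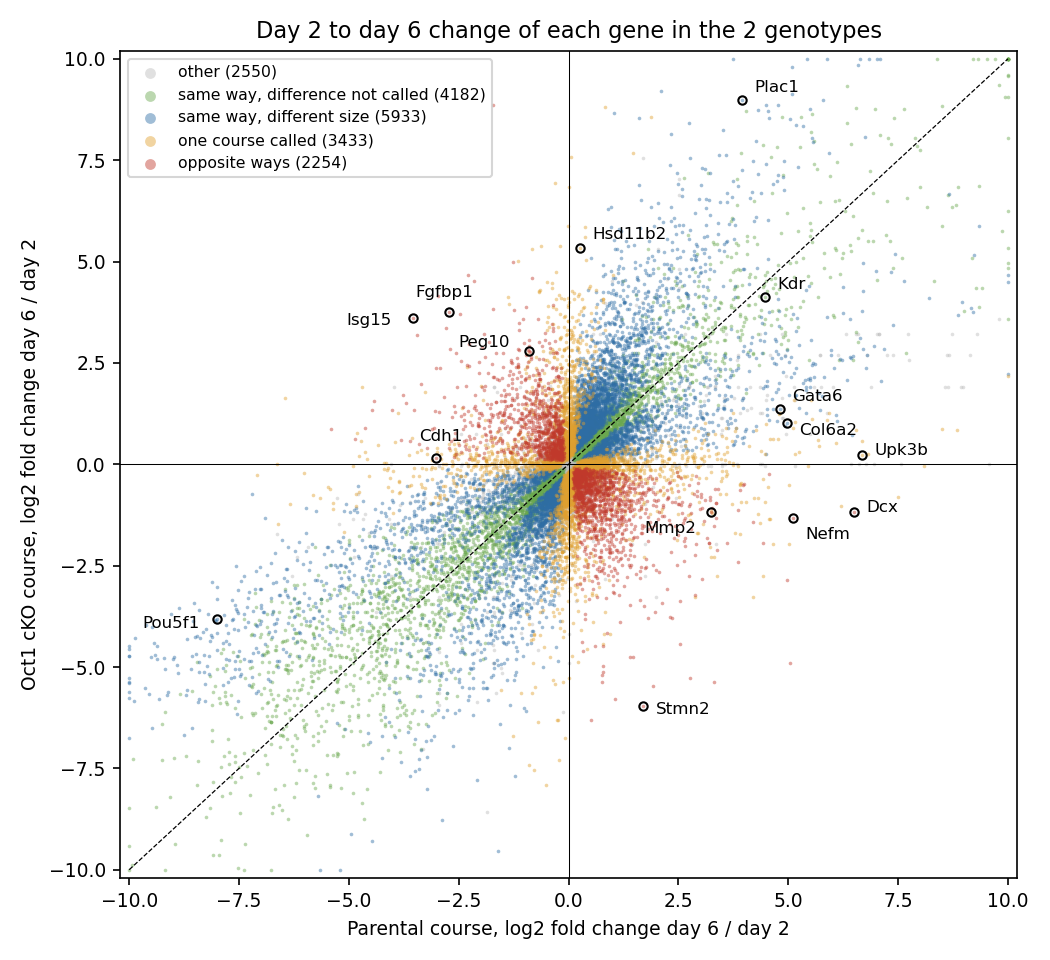
Each point is 1 of the 18352 genes tested, with the log2 fold change from day 2 to day 6 in parental cells on the x axis and in Oct1 cKO cells on the y axis (values beyond 10 are drawn at 10), coloured by how the courses compare. The dashed line marks equal change. Most points lie in the quadrants where both courses share a sign, and the 2254 genes that went opposite ways fill the upper left and lower right, with Isg15 and Fgfbp1 on one side and Nefm, Dcx and Stmn2 on the other.

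The 3 marker genes of the contrast behaved in 3 different ways. Cdh1 is E-cadherin, the adhesion protein of epithelial cells and ESCs. Its level in parental cells was 357, 346 and 330 CPM at day 2 and 39.2, 45.5 and 42.5 CPM at day 6. Levels in cKO cells were 475, 444 and 469 CPM at day 2 and 524, 486 and 541 CPM at day 6. The parental cells lost most of their Cdh1 while the cKO cells held it, and at day 6 the lowest cKO library was far above the highest parental one. The parental course was -3.02 ± 0.05, the cKO course a small 0.16 ± 0.05 (adjusted p = 0.00265) and the interaction 3.18 ± 0.07 (adjusted p = 3.64e-30).

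Cdh2 is N-cadherin, which replaces E-cadherin in mesenchymal and neural cells. Parental libraries held 26.6, 28.7 and 24.9 CPM at day 2 and 169, 170 and 160 CPM at day 6. The cKO libraries held 3.55, 3.73 and 3.94 CPM at day 2 and 14.1, 12.5 and 9.72 CPM at day 6. The gene rose in both lines, from a much lower start in cKO cells, so that even their day 6 level stayed under the parental level of day 2. The interaction was -0.94 ± 0.15 (adjusted p = 1.4e-06), and most of the distance at day 6 (-3.77 ± 0.07) was already there at day 2 (-2.84 ± 0.11).

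Nefm encodes the medium neurofilament subunit of axons. Parental cells went from 12.5, 11.6 and 11.7 CPM to 457, 414 and 366 CPM. The cKO cells went from 19.6, 18.8 and 21.2 CPM down to 8.04, 7.99 and 7.75 CPM. At day 2 all cKO libraries were above all parental ones and at day 6 all were below, so the lines crossed. The interaction was -6.43 ± 0.12 (adjusted p = 2.45e-31). Nefm shares exon sequence with Nefl on the opposite strand, 1108 bases or 19.2% of its annotated exons, and the strand setting of the counting is not given in the sources used here, so some reads of either gene may be counted for the other.

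**Figure D2:**
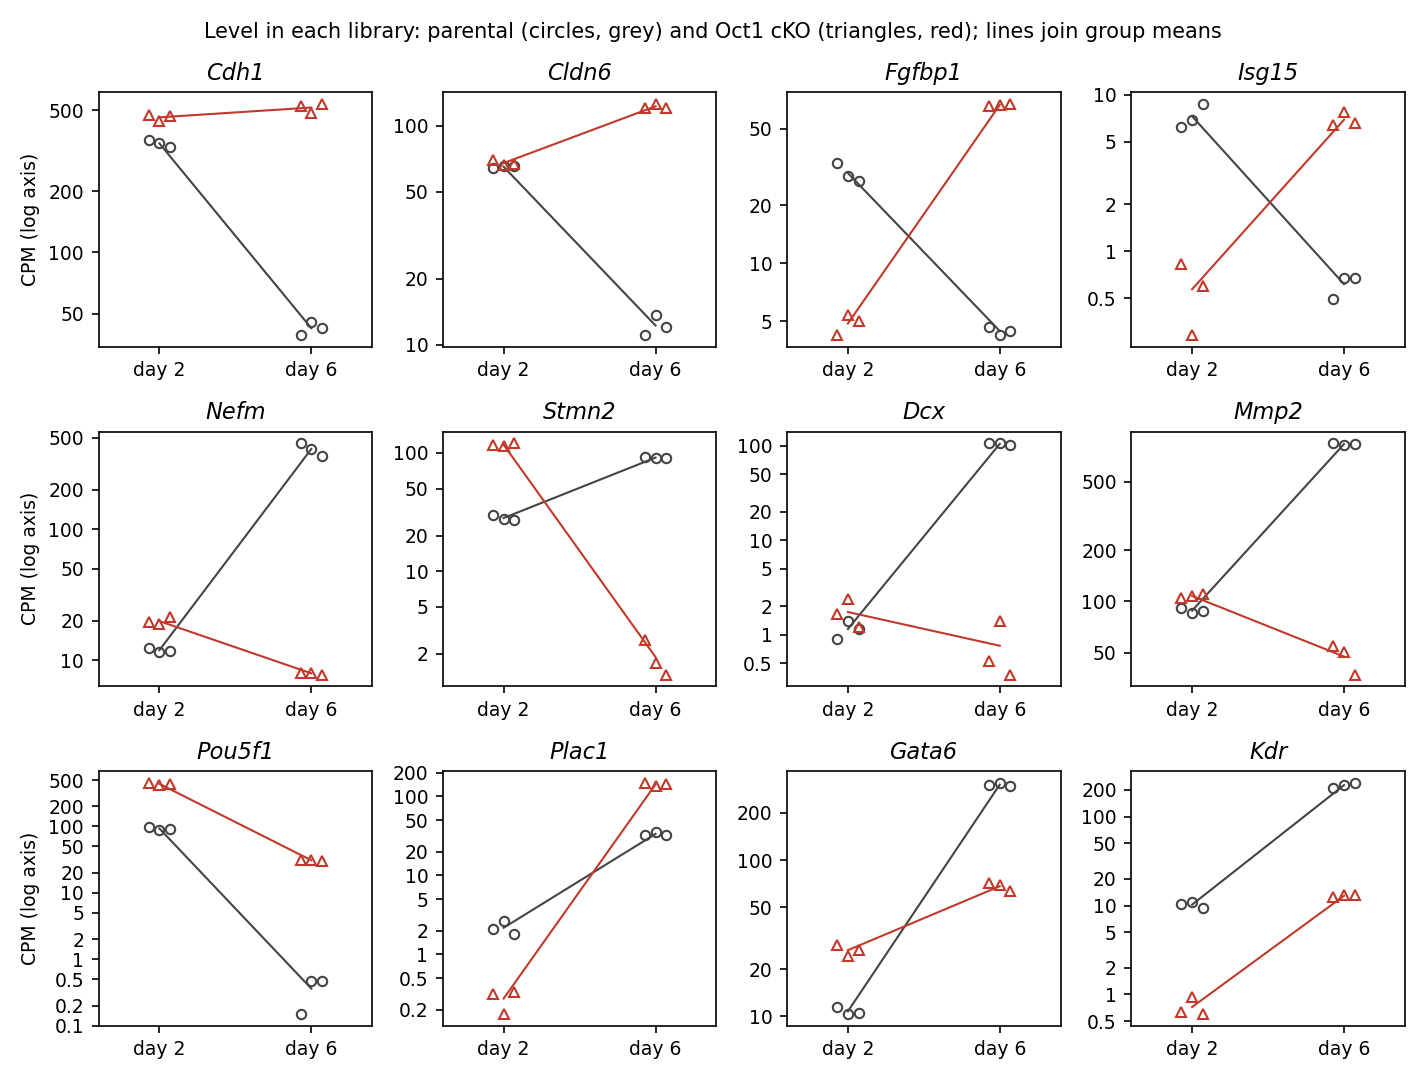
CPM on a log axis in each library at day 2 and day 6 for 12 genes, with parental libraries as grey circles, Oct1 cKO libraries as red triangles and lines between group means. Cdh1, Cldn6, Fgfbp1 and Isg15 fall only in parental cells, Nefm, Stmn2, Dcx and Mmp2 fall only in cKO cells, and the lines of Kdr run side by side.

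Genes that fell in parental cells and rose in cKO cells numbered 940, or 5.12% of those tested, and 159 of them changed at least 2-fold in both lines. Of the 25 gene lists examined, the epithelial one had the largest share here: 14 of its 30 genes took this path, 27 had an interaction above 0 against a background of 31.5%, and none lay below 0. The median interaction of the list was 2.46, beside -0.01 over all genes. Among them were Cdh1, the tight junction claudins Cldn3, Cldn4, Cldn6 and Cldn7, the junction scaffold Tjp3, the splicing factor Esrp1, the epithelial transcription factors Grhl2 and Elf3, the protease St14 with its inhibitors Spint1 and Spint2, and the desmosome protein Pkp3. The cKO rise of Cdh1 was smaller in size than the median shift of the cKO course without a scaling factor (-0.191).

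Cldn6 (chromosome 17, 23679249 to 23682446) is a claudin of early embryonic epithelia. Its parental levels were 63.8, 65.7 and 65.3 CPM at day 2 and 11.1, 13.7 and 12.1 CPM at day 6. Its cKO levels were 69.6, 66.3 and 66.5 CPM at day 2 and 121, 126 and 121 CPM at day 6. The lines began at nearly the same level, and at day 6 the lowest cKO library stood far above the highest parental one. The interaction was 3.26 ± 0.08 (adjusted p = 1.2e-28). Cldn3, a claudin of tight junctions, had the largest interaction of the list, 4.46 ± 0.15, with a fall of 2.55 in parental cells against a rise of 1.91 in cKO cells.

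Another 9 epithelial genes rose in both lines and rose more in cKO cells. They include the simple-epithelium keratins Krt8, Krt18 and Krt19 and the desmosome protein Dsp. Krt8 went from 71.9, 72.3 and 70.9 to 394, 430 and 423 CPM in parental libraries, and from 69.5, 63.6 and 65.3 to 1636, 1476 and 1431 CPM in cKO libraries. The lines overlapped at neither day, and the lowest cKO library of day 6 stood well above the highest parental one. Epcam, an adhesion protein shared by ESCs and epithelia, fell in both lines, by 2.56 in parental and by 0.46 in cKO cells on the log2 scale. The summed level of the 30 genes was 1570 to 1580 CPM in parental cells at day 2 and 1790 to 1940 CPM at day 6, and it went from 1850 to 1890 CPM up to 7150 to 7790 CPM in cKO cells.

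Promoters of these genes are shown because the E-box CAGGTG is the element that the repressors of the Snail and Zeb families bind in epithelial genes, and because those repressors are themselves among the genes compared. RefSeq promoter windows (250 bases before to 50 after the start of a gene, GRCm38.p6) were found for 12754 of 18342 gene symbols tested. CAGGTG, searched on both strands, occurs in 18.9% of all windows, in 25.6% of those of genes that fell in parental and rose in cKO cells (182 of 710), and in 14.7% of those of genes that did the reverse (152 of 1037). By list, it occurs in 7 of 15 pluripotency, 7 of 16 trophoblast and 3 of 18 neuron genes with a window. It occurs in 6 of 22 genes of the interferon-inducible and antigen presentation list, and in 15 of the 18 epithelial genes with a window. The upstream stretches of 3 of them on the minus strand follow, each read 5′ to 3′ with CAGGTG or its reverse complement in capitals, from chr10:81291582-81291699 (Tjp3), chr7:29281978-29282077 (Spint2) and chr5:134946935-134947034 (Cldn4).
Tjp3: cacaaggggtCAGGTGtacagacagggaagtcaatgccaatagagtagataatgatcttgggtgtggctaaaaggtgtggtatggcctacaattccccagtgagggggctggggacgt
Spint2: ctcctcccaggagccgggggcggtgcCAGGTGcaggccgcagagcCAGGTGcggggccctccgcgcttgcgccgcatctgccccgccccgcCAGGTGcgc
Cldn4: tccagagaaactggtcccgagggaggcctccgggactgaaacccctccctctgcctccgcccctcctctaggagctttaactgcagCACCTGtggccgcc
Spint2 holds 3 copies, and the other stretches hold 1 each. Cldn7 and Spint1, which also fell in parental and rose in cKO cells, hold none in their windows, while Epcam, which fell in both lines, holds 2. A match is a description of the letters and shows neither binding nor a cause.

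The repressors did not share 1 pattern. Snai2, which encodes Slug, rose by 4.52 in parental and by 1.37 in cKO cells (interaction -3.14 ± 0.27, adjusted p = 3.71e-13). Zeb1 rose by 2.42 and by 0.50 (interaction -1.92 ± 0.11, adjusted p = 2.05e-18). Snai1, which encodes Snail, went the other way in size, with a rise of 1.22 in parental and of 2.19 in cKO cells (interaction 0.97 ± 0.13, adjusted p = 2.34e-08).

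Of 27 tested genes of the interferon-inducible and antigen presentation list, 21 had an interaction above 0 and 3 below, beside 31.5% and 32.0% over all genes, with a median of 1.13. The most frequent path, in 9 genes, was a fall in both lines that was larger in parental cells, while 5 genes fell in parental and rose in cKO cells. The summed level of the list fell from 1590 to 1650 CPM to 562 to 581 CPM in parental cells, and was 990 to 1010 CPM at day 2 and 949 to 988 CPM at day 6 in cKO cells. The genes described next are mostly ones that rose in cKO cells. As background, interferons are antiviral cytokines that switch on many of their target genes through the ISRE. It was searched here as GAAA and GAAA separated by any 2 bases on either strand. Isg15 (chromosome 4, 156199424 to 156200818), a ubiquitin-like protein, held 6.19, 6.87 and 8.77 CPM in parental cells at day 2 and 0.498, 0.675 and 0.679 CPM at day 6. In cKO cells it held 0.824, 0.292 and 0.602 CPM at day 2 and 6.43, 7.76 and 6.55 CPM at day 6. The groups traded places, with no overlap between the lines at either day. The interaction of 7.14 ± 0.32 (adjusted p = 2.89e-21) was the largest above 0 among the genes chosen from this class, though the gene is scarce in every library.

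Rsad2, which encodes the antiviral protein viperin, moved alike at higher levels. Parental libraries fell from 30.3, 31.2 and 30 CPM to 7.31, 6.9 and 8.1 CPM, and cKO libraries rose from 14.4, 15.3 and 17.9 CPM to 86.6, 89.8 and 97.3 CPM. The highest cKO library of day 2 was below the lowest parental one, and at day 6 the lowest cKO library was above all parental libraries of either day. The interaction was 4.56 ± 0.11 (adjusted p = 2.2e-29). Irf7, the transcription factor that amplifies the interferon response, had a called course only in cKO cells, from 0.19, 0.292 and 0.468 CPM to 10.4, 10.3 and 10.9 CPM. The list did not move as 1 block: H2-D1, a class I antigen-presenting protein, went opposite ways, H2-K1 of the same family fell in both lines, and Ifitm3 rose in parental and fell in cKO cells. H2-D1 and H2-K1 are similar in sequence and may share reads.

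The ISRE occurs in 2.85% of all 12754 promoter windows and in 11 of 22 windows of the interferon list. It occurs in 4.08% of the windows of genes that fell in parental and rose in cKO cells and in 2.7% of those that did the reverse. Of the 5 list members that fell in parental and rose in cKO cells, only 3 hold it, and these 3 were picked for print. H2-D1 of that class holds none, and Ifitm3, which went the reverse way, holds 2. The upstream stretches of the 3 are shown 5′ to 3′ with the ISRE or its reverse complement in capitals. All are on the minus strand of GRCm38.p6: chr4:156200819-156200918 (Isg15), chr5:120907526-120907625 (Oas1a) and chr12:26456453-26456582 (Rsad2).
Isg15: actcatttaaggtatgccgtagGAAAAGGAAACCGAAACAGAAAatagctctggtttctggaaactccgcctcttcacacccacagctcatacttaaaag
Oas1a: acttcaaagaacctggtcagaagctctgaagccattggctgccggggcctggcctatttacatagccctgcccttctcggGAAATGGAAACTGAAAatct
Rsad2: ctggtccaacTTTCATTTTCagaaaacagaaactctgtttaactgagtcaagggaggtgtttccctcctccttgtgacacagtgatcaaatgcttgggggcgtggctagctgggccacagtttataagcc
Isg15 holds 3 overlapping copies, Oas1a 2 and Rsad2 1. The octamer ATGCAAAT, which Oct1 itself binds, occurs in 1.48% of all windows, in 1.13% of the windows of genes that fell in parental and rose in cKO cells, and in 2.31% of those of the reverse class.

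The largest interactions above 0 among the ranked genes of this class, beside Isg15, belonged to genes of varied function. Fgfbp1 (chromosome 5, 43978858 to 43981779), a secreted carrier of fibroblast growth factors, fell from 33.1, 28.3 and 26.8 CPM to 4.68, 4.26 and 4.44 CPM in parental cells. The cKO cells raised it from 4.25, 5.37 and 5.01 CPM to 65.3, 66.5 and 67.4 CPM. Parental cells of day 6 and cKO cells of day 2 thus had nearly the same level, and the 4 groups otherwise stood clear of each other. The interaction was 6.48 ± 0.14 (adjusted p = 2.36e-31). Zbtb16, a zinc finger repressor also called PLZF, followed with 6.26 ± 0.23, Pcsk1, a prohormone convertase, with 5.48 ± 0.29, Irx4, an Iroquois homeodomain factor, with 5.43 ± 0.35, and Bcl2l14, a relative of Bcl2, with 5.0 ± 0.33.

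Sall4, a zinc finger factor of pluripotent cells, was the 1 pluripotency gene of 26 in this class. It fell from 120, 113 and 112 CPM to 24.1, 23.6 and 23.6 CPM in parental cells. In cKO cells it rose from 86.8, 79.4 and 84.8 CPM to 127, 141 and 136 CPM. The order of the lines was reversed between the days without overlap, and the interaction was 2.97 ± 0.07 (adjusted p = 3.61e-29). Slc2a1, the glucose transporter GLUT1, also fell in parental cells (by 1.83) and rose in cKO cells (by 1.10), from means of 1957 and 1183 CPM to 550 and 2535 CPM.

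Genes that rose in parental cells and fell in cKO cells numbered 1314, or 7.16% of those tested, and 199 of them changed at least 2-fold in both lines. Which direction held more genes depended on the processing. In a fit of the 12 libraries alone, 1203 genes fell in parental and rose in cKO cells and 1148 did the reverse. With DESeq2's size factors over all 18 libraries the counts were 1150 and 1094. Those factors moved the median interaction of all genes by 0.101. Of the 940 and 1314 genes, 940 and 1094 were in the same class with those factors, and 725 and 955 were with library sizes that had no scaling factor.

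Neuronal genes were among the most extreme ranked members, though the list as a whole went both ways. Of 25 tested neuron genes 8 had an interaction below 0 and 10 above, beside 32.0% and 31.5% over all genes, and the median was 0.11. The axonal and migration genes Nefm, Nefl, Stmn2, Dcx and Gap43 rose in parental cells and fell in cKO cells. The adhesion genes L1cam and Cntn2 did the reverse, and Tubb3, a neuronal tubulin, and Syp, a synaptic vesicle protein, rose in both lines and more in cKO cells. The summed level of the list went from 232 to 247 CPM up to 819 to 952 CPM in parental cells, and from 310 to 334 CPM down to 122 to 130 CPM in cKO cells. Nefm alone made up a mean of 412 CPM of the parental sum at day 6, and the median parental course of the list was -1.17. In bulk RNA, fewer cells of a type and less RNA per cell cannot be told apart, here and in every result above and below.

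Stmn2 (chromosome 3, 8509360 to 8561606) encodes stathmin 2, which regulates microtubules in growing axons. Its parental levels were 30.1, 27.5 and 26.9 CPM at day 2 and 92.6, 90.4 and 91 CPM at day 6. Its cKO levels were 117, 114 and 121 CPM at day 2 and 2.62, 1.68 and 1.33 CPM at day 6. The cKO cells began with more of this transcript than parental cells had even at day 6 and ended with almost none. The interaction was -7.65 ± 0.12 (adjusted p = 4.57e-34), the sum of a rise of 1.70 and a fall of 5.95.

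Dcx, the microtubule protein doublecortin of migrating neurons, differed from Stmn2 in where the change lay. Parental libraries held 0.904, 1.41 and 1.15 CPM at day 2 and 105, 106 and 102 CPM at day 6. The cKO libraries held 1.65, 2.39 and 1.2 CPM at day 2 and 0.536, 1.39 and 0.381 CPM at day 6. The lines overlapped at day 2, and the cKO libraries of the 2 days also overlapped, and the interaction of -7.67 ± 0.39 (adjusted p = 1.51e-18) was mostly the parental rise of 6.50, with a called cKO fall of 1.17. Nefl, the light neurofilament subunit, had an interaction of -4.99 ± 0.12, with the reservation given for Nefm.

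Mesenchymal genes showed the mirror image of the epithelial ones in part. Of 25 genes, 17 had an interaction below 0 and 5 above, with a median of -0.94. The most frequent path, in 10 genes, was a rise in both lines that was larger in parental cells. Only 5 genes rose in parental and fell in cKO cells, and the median course of the list was 2.42 in parental and 1.37 in cKO cells. Mmp2 (chromosome 8, 92827291 to 92853420), a secreted collagenase, held 91.6, 86.1 and 87.5 CPM in parental cells at day 2 and 844, 822 and 833 CPM at day 6. In cKO cells it held 105, 108 and 111 CPM at day 2 and 54.7, 50.8 and 37.4 CPM at day 6. The cKO libraries were slightly the higher ones at day 2, and from there the lines moved apart in opposite directions. The interaction was -4.41 ± 0.10 (adjusted p = 3.67e-23).

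Twist1, a transcription factor of mesenchyme, rose by 2.58 in parental and fell by 1.20 in cKO cells (interaction -3.78 ± 0.17, adjusted p = 1.2e-21). Vim, the intermediate filament vimentin, Ddr2, a collagen receptor, and Wnt5b, a secreted Wnt ligand, completed the 5 mesenchymal genes that went opposite ways in this direction. The exceptions were Snai1, Twist2, Itga5, Itgb3 and Loxl2, which rose in both lines and more in cKO cells. Twist2 lost its call without KO-2 replicate 1 (1.07) or KO-6 replicate 1 (1.06). Itgb3, an integrin subunit, reached 307 ± 11.1 CPM (SD, n = 3) in cKO cells at day 6 against 68.6 ± 1.61 CPM in parental cells. The summed level of the list was 9540 to 9820 CPM in parental and 9060 to 9380 CPM in cKO cells at day 6. It was carried by Sparc, a matrix protein, which reached 4487 ± 56.8 and 5603 ± 119 CPM, so the sum does not show what most members did.

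Other genes with large interactions below 0 in this class were Prmt8, an arginine methyltransferase of the nervous system (-7.84 ± 0.41), Aox3, an aldehyde oxidase (-6.15 ± 0.35), Jam2, a junctional adhesion molecule (-5.95 ± 0.19), and Ngfr, the neurotrophin receptor p75 (-5.49 ± 0.30). They differed in which line did the moving. Ngfr rose by 3.37 in parental cells and fell by 2.12 in cKO cells. Jam2 rose by only 0.76 in parental cells, from 6.96, 5.25 and 5.48 CPM to 10.7, 8.51 and 10.9 CPM, and fell by 5.19 in cKO cells, from 34.9, 32 and 37.6 CPM to 1.07, 0.984 and 0.763 CPM. Its cKO libraries of day 2 were above every parental library. Tmem45a (-5.21 ± 0.18) and Fbln5, a matrix protein of elastic fibres (-5.13 ± 0.30), complete the set.

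**Figure D3:**
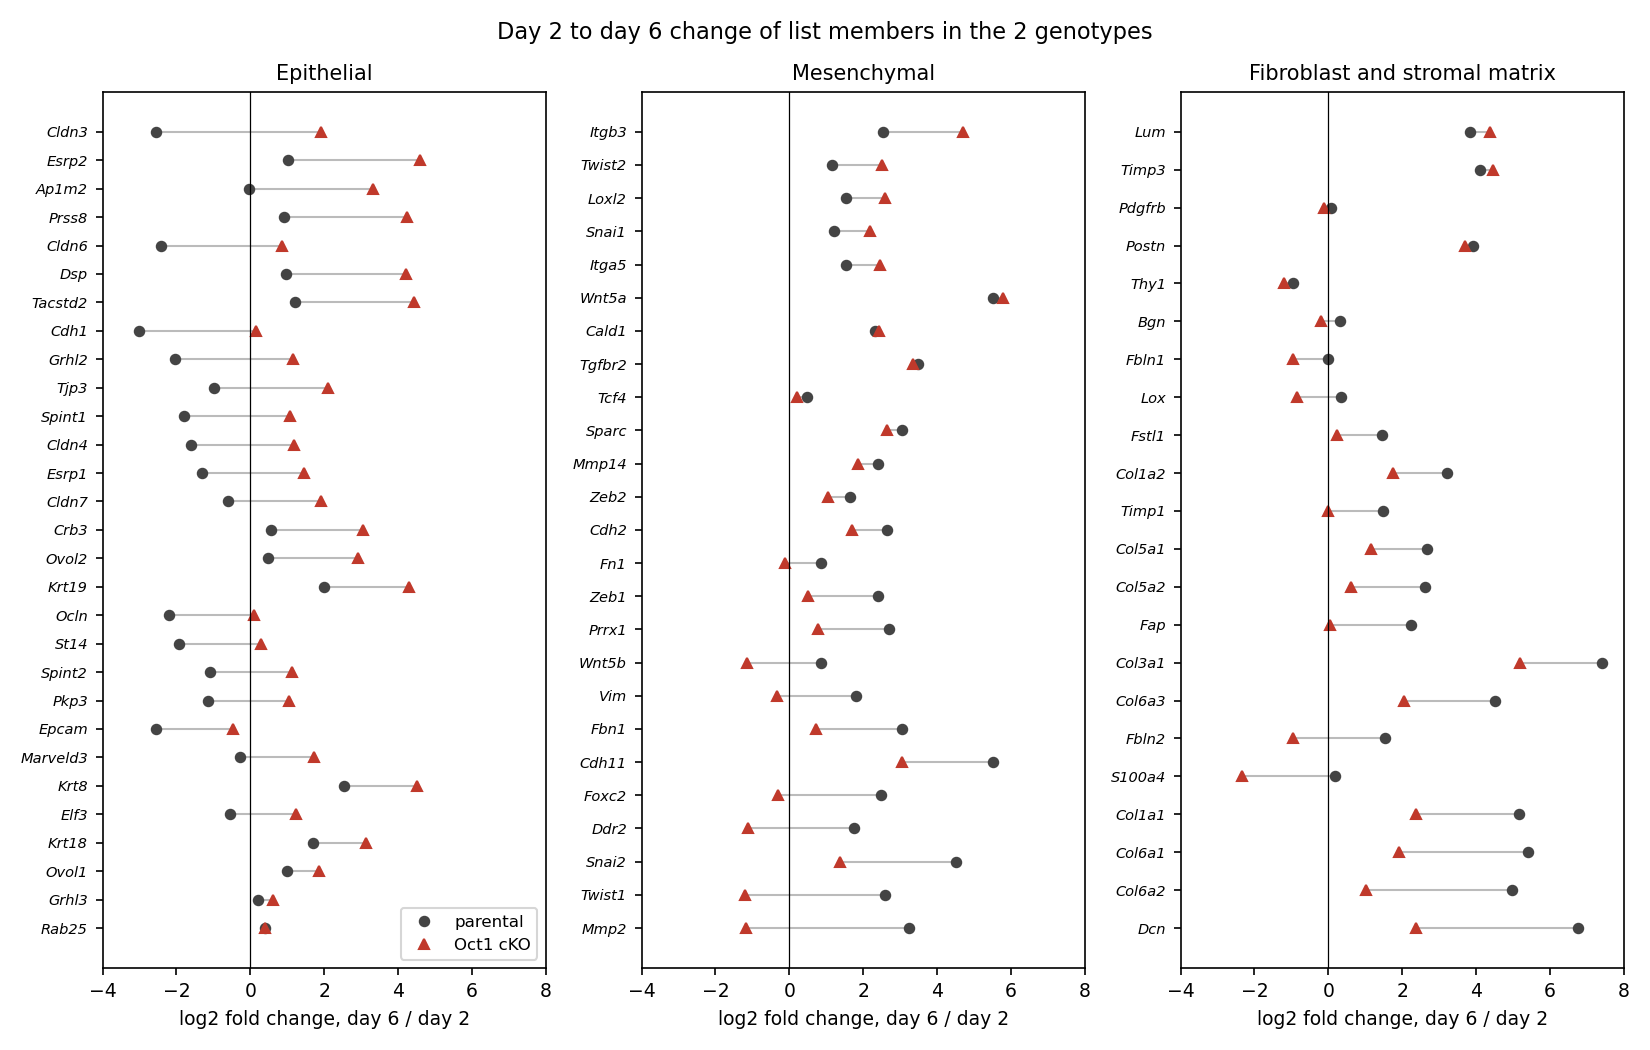
Log2 fold change from day 2 to day 6 in parental (grey circles) and Oct1 cKO cells (red triangles) for the tested genes of the epithelial, mesenchymal and fibroblast and stromal matrix lists, ordered within a list by the interaction, with a line joining the pair. One epithelial gene is left out of the plot. In the epithelial panel the cKO value lies to the right for most genes, and in the other panels it lies to the left for 17 genes with a called interaction each.

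Among genes that rose in both lines, 2306 (12.6%) rose more in cKO and 1022 (5.57%) more in parental cells. The trophoblast list had the largest share in the first class of the 25 lists: 13 of 21, with 17 of 21 interactions above 0, none below, and a median of 2.35. Trophoblast is the outer lineage that forms the placenta. Its regulators Cdx2, Elf5, Tfap2c, Gata3, Gata2, Hand1 and Tead4 were among the 13, and only Elf5 lost its call without a library (3.39 without WT-2 replicate 1). Tfap2c went from 22, 20.1 and 21.1 to 39.2, 40.5 and 36.6 CPM in parental cells and from 14.4, 16.6 and 18.7 to 255, 241 and 242 CPM in cKO cells. The cKO libraries began below the parental ones and ended far above them, without overlap at either day.

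Plac1, an X-linked placental gene, rose from 2.08, 2.63 and 1.79 CPM to 32.3, 35.2 and 32.6 CPM in parental cells. In cKO cells it rose from 0.317, 0.175 and 0.334 CPM to 149, 133 and 142 CPM. Both lines rose steeply, and the cKO cells passed the parental ones from a lower start. The interaction was 5.04 ± 0.28 (adjusted p = 2.17e-18).

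Peg10, an imprinted gene derived from a retrotransposon and needed for the placenta, was the most abundant member and went opposite ways. It held 5251, 5810 and 5669 CPM in parental cells at day 2 and 3022, 3043 and 2939 CPM at day 6. In cKO cells it held 2096, 2016 and 2138 CPM at day 2 and 14487, 14091 and 14788 CPM at day 6. The 4 groups did not overlap, and the cKO cells moved from the lowest to the highest level. The interaction was 3.69 ± 0.08 (adjusted p = 1.16e-31). Not every trophoblast gene followed: Eomes, a T-box factor of trophoblast stem cells and mesoderm, fell in both lines, and no interaction was called for the mature trophoblast genes Tpbpa, Prl3d1, Ctsq and Gcm1, of which Gcm1 was called without KO-6 replicate 3 (-4.27). The summed level of the list reached 18900 to 19700 CPM in cKO cells at day 6 and 4380 to 4490 CPM in parental cells, mostly through Peg10.

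In the definitive endoderm list 12 of 15 interactions lay above 0 and 2 below, and in the extraembryonic endoderm list 18 of 32 lay above and 7 below, beside 31.5% and 32.0% over all genes. In the extraembryonic list 11 genes rose in both lines and more in cKO cells, and 6 rose more in parental cells. Sox17, an endoderm transcription factor in both lists, went from 4.97, 4.24 and 4.63 to 10.6, 10.8 and 10.1 CPM in parental cells and from 3.99, 2.97 and 3.74 to 46.4, 43.8 and 41.2 CPM in cKO cells. Foxa2, a forkhead factor of endoderm, and Hnf4a, a regulator of visceral endoderm and liver, had interactions of 2.28 ± 0.18 and 2.06 ± 0.23. Gata6, which drives primitive endoderm and is also expressed in mesoderm, went against them. It rose from 11.5, 10.4 and 10.5 to 303, 313 and 295 CPM in parental cells but only from 28.5, 24.5 and 26.6 to 71.3, 69.2 and 63.5 CPM in cKO cells. The cKO libraries were the higher ones at day 2 and the lower ones at day 6 (interaction -3.45 ± 0.10, adjusted p = 1.91e-27). No interaction was called for Afp, the fetal serum protein, which rose by 4.76 and 4.91 (interaction 0.16 ± 0.45, adjusted p = 0.789).

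Genes of fibroblasts and stromal matrix had the largest share of the 25 lists in the class that rose more in parental cells: 10 of 22 against a background of 5.57%. In all 17 of the 22 had an interaction below 0 and 1 above, with a median of -1.5. The 10 were the collagen chains Col1a1, Col1a2, Col3a1, Col5a1, Col5a2, Col6a1, Col6a2 and Col6a3, the proteoglycan Dcn and the secreted protein Fstl1. Col1a1 rose from 58.2, 55 and 56.8 to 2109, 1941 and 2064 CPM in parental cells and from 37.9, 46.9 and 50 to 250, 247 and 198 CPM in cKO cells. Both lines rose, and at day 6 every parental library stood far above every cKO library. The interaction was -2.80 ± 0.12 (adjusted p = 8.79e-15), that of Col6a2 was -3.94 ± 0.16 and that of Dcn was -4.38 ± 0.41.

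The list was not uniform. Postn, a matrix protein of mesenchyme, rose by 3.91 and 3.71 with no called difference (interaction -0.20 ± 0.18, adjusted p = 0.349), and Timp3, a protease inhibitor, had 0.35 ± 0.12 (adjusted p = 0.0139), a call lost without KO-2 replicate 1 or 2 (0.30 each). Timp3 also shares 21.3% of its exon bases with Syn3 on the opposite strand. The summed level went from 724 to 753 CPM up to 6320 to 6780 CPM in parental cells and from 622 to 653 CPM up to 1230 to 1390 CPM in cKO cells. The part of stromal or feeder cells in these levels was not tested.

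Receptors and targets of transforming growth factor beta, nodal and BMP signalling, the pathways that act through Smad proteins, were split: 12 of 27 lay above 0 and 10 below, beside 31.5% and 32.0% over all genes, with a median of 0.27. Id3, an inhibitor of helix-loop-helix factors induced by BMP, rose from 28.6, 33.2 and 32.7 to 273, 268 and 287 CPM in parental cells and from 18, 17.2 and 20.7 to 33.1, 31.9 and 29.5 CPM in cKO cells. Tgfbi, a secreted target of TGF-beta, rose by 6.22 and by 2.57 (interaction -3.65 ± 0.19, adjusted p = 1.93e-16). Bambi, a decoy receptor, rose in parental and fell in cKO cells (-3.20 ± 0.13, adjusted p = 8.13e-23). Nodal and its antagonist Lefty1 fell in both lines and more in parental cells.

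Among genes that fell in both lines, 1583 (8.63%) fell more in cKO and 1022 (5.57%) more in parental cells. Pluripotency genes stood in the second class: 12 of 26. Pou5f1, which encodes Oct4, went from 98.3, 89.3 and 91.9 CPM to 0.149, 0.467 and 0.47 CPM in parental cells and from 458, 423 and 435 CPM to 30.8, 31.6 and 30.4 CPM in cKO cells. The cKO libraries were higher at both days. The label ESC thus names the starting cells, since parental cells of day 6 had almost none of this defining transcript. The fall was 7.99 ± 0.15 log2 units in parental and 3.82 ± 0.08 in cKO cells, and the interaction was 4.17 ± 0.24 (adjusted p = 9.73e-15).

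Dnmt3l, a cofactor of DNA methylation in ESCs and germ cells, and Lin28a, which blocks the maturation of let-7, behaved alike, with interactions of 3.82 ± 0.13 and 2.70 ± 0.07. Interactions below 0 were called for Nanog and Tdgf1, which fell more in cKO cells, and for Tbx3, a T-box factor, which rose in parental and fell in cKO cells. Nanog, a core pluripotency factor, went from a mean of 22.9 to 1.34 CPM in parental and from 28.8 to 0.342 CPM in cKO cells (interaction -2.28 ± 0.32, adjusted p = 8.37e-08). Genes of the 2-cell-like state, a rare state of ESC cultures, were 16 of 17 in the class that fell more in parental cells. Their summed level went from 437 to 543 CPM down to 1.57 to 2.04 CPM in parental cells and from 580 to 678 CPM down to 28.7 to 33.6 CPM in cKO cells. Most belong to the near-identical Zscan4, Tcstv and Usp17 families, whose members share reads and are no separate observations.

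Proliferation genes fell in both lines and fell more in cKO cells at 16 of 20, against a background of 8.63%. The differences were small, with a median of -0.44. Top2a, the topoisomerase of dividing cells, went from 1353, 1374 and 1351 to 788, 786 and 787 CPM in parental cells and from 1537, 1487 and 1520 to 484, 476 and 485 CPM in cKO cells. The order of the lines reversed without overlap. The interaction was -0.86 ± 0.06 (adjusted p = 3.7e-15), and only 1 of the 20, Ccnb2 (-1.01 ± 0.07), reached a 2-fold interaction.

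Hox genes, which set position along the body axis and respond to retinoic acid, mostly had interactions below 0: 12 of 15 in paralogue groups 1 to 5 and 13 of 20 in groups 6 to 13, beside 32.0% over all genes. In the lower groups 3 genes lay above 0, among them Hoxb1 and Hoxd1, which fell in both lines and more in parental cells. Hoxb5 fell from 77, 86.2 and 85.7 to 18.1, 19.4 and 17.4 CPM in parental cells and from 32.4, 33.5 and 39.4 to 0.715, 1.1 and 0.89 CPM in cKO cells (interaction -3.09 ± 0.19, adjusted p = 3.04e-17). Hoxc8 rose from 3.75, 4.19 and 4.48 to 65.4, 64.2 and 63.5 CPM in parental cells and only from 1.77, 1.81 and 1.87 to 3.33, 2.32 and 2.22 CPM in cKO cells (interaction -3.43 ± 0.24, adjusted p = 2.69e-15). The cKO libraries were lower than the parental ones at both days for each of these 2 genes.

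Genes of the retinoic acid response itself were divided, with 11 of 23 above 0 and 9 below, beside 31.5% and 32.0% over all genes. Crabp2, a carrier of retinoic acid to its receptor, fell from a mean of 136 to 6.71 CPM in parental and from 11.2 to 4.26 CPM in cKO cells, so the lines differed most at day 2 (interaction 2.94 ± 0.17, adjusted p = 7.46e-18). Rarg, a retinoic acid receptor, fell mainly in cKO cells, from 84.1 to 12.6 CPM against 33.9 to 28.5 CPM (interaction -2.49 ± 0.10, adjusted p = 7.53e-23). Aldh1a2, which makes retinoic acid, rose from 3.31 to 92.3 CPM in parental and from 3.29 to 13.1 CPM in cKO cells (interaction -2.80 ± 0.20, adjusted p = 2.31e-15).

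**Figure D4:**
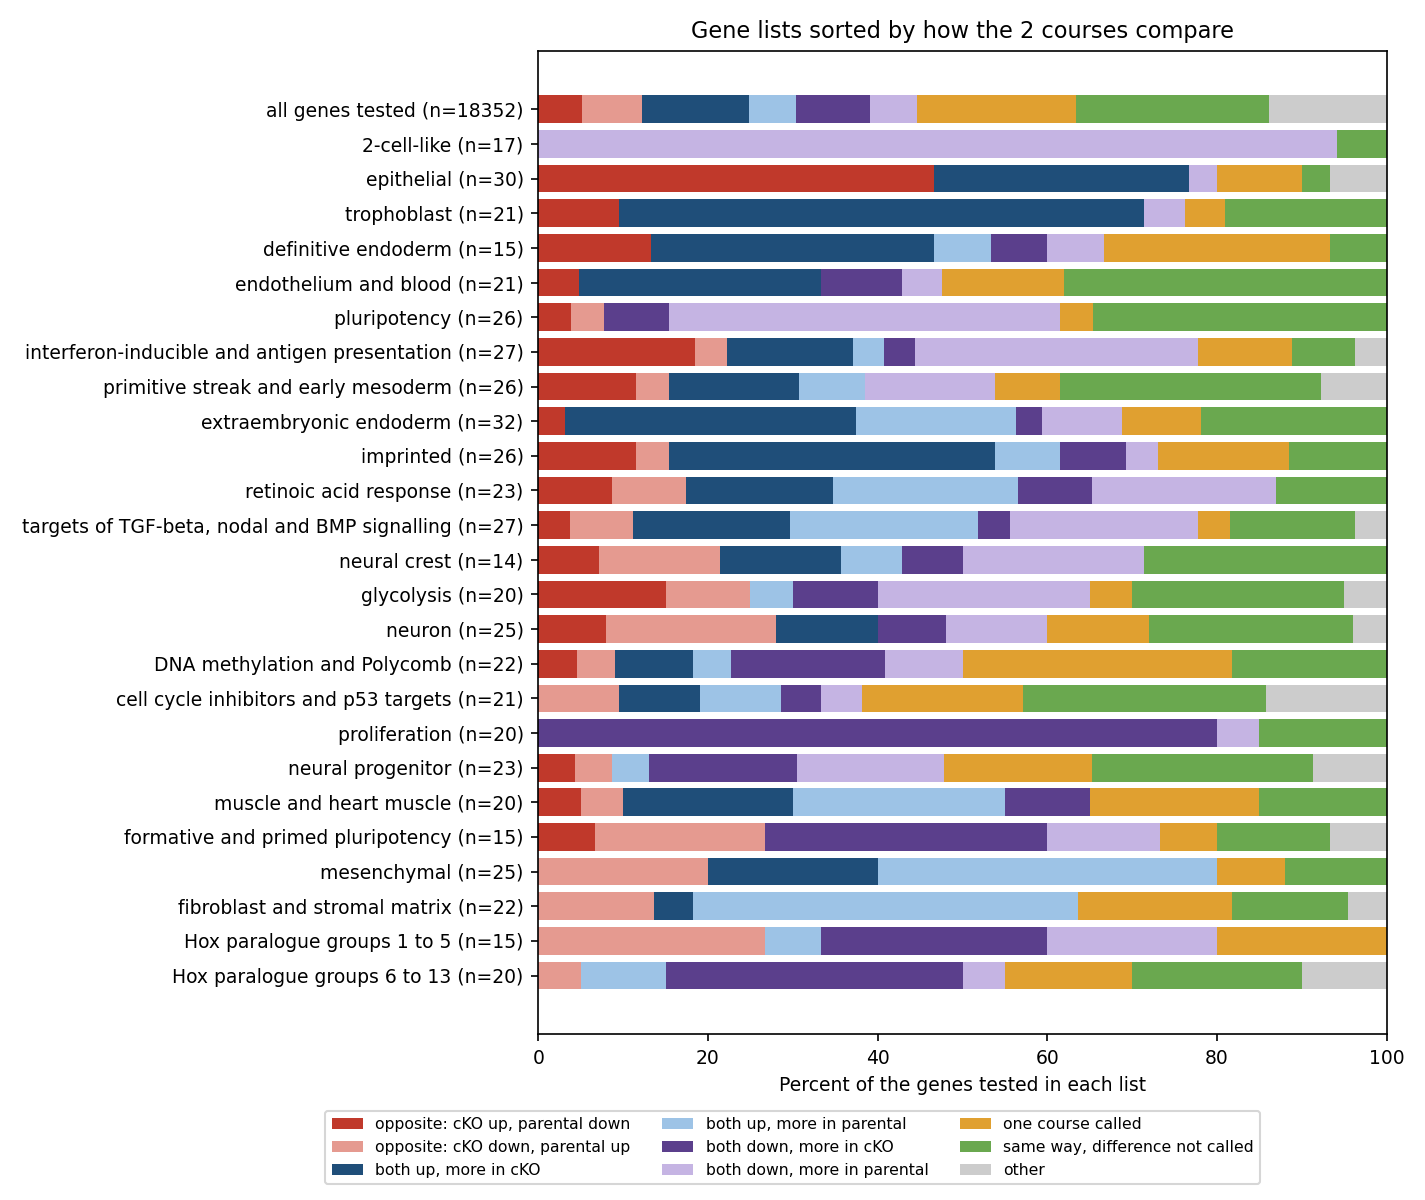
Share of the tested genes of each list (x axis, percent) that falls in each class of courses, with all genes tested as the top bar and the lists in order of their median interaction, from 2-cell-like at the top to Hox paralogue groups 6 to 13 at the bottom. Opposite courses with a rise in cKO cells take up 14 of 30 epithelial genes against 5.12% of all genes, a larger rise in cKO cells takes up 13 of 21 trophoblast genes against 12.6%, and a larger fall in cKO cells takes up 16 of 20 proliferation genes against 8.63%.

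Only the parental course was called at 933 rising (5.08%) and 567 falling genes (3.09%) with a called interaction. Upk3b, a uroplakin found on mesothelium, had the largest interaction of the ranked rising ones. It went from 0.904, 1.41 and 0.997 CPM to 105, 111 and 124 CPM in parental cells, while the cKO libraries held 1.84, 1.87 and 1.94 CPM at day 2 and 2.68, 1.27 and 2.67 CPM at day 6. The cKO libraries of the 2 days overlapped and never reached 3 CPM (interaction -6.46 ± 0.33, adjusted p = 2.67e-19). The next were Nkain3 (-5.57 ± 0.78), Emx2, a homeodomain factor of the forebrain and urogenital tract (-5.10 ± 0.38), Cdh10, a cadherin (-4.80 ± 0.51), and Bnc1, a zinc finger factor (-4.42 ± 0.40).

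Wfikkn1, a secreted antagonist of growth and differentiation factors, led the ranked falling ones. Parental cells went from 53, 50.3 and 52 CPM to 0.796, 0.986 and 0.575 CPM, and the cKO libraries held 5.58, 6.53 and 6.48 CPM at day 2 and 5.95, 4.98 and 5.21 CPM at day 6. The cKO course was not called (adjusted p = 0.133), and the cKO level lay between the parental levels of the 2 days (interaction 5.82 ± 0.20, adjusted p = 1.16e-24). Phlda2, an imprinted gene that restrains placental growth, shows a simpler case: every library outside the parental group of day 6 lay between 15.4 and 19.7 CPM, and that group held 0.796, 1.25 and 1.1 CPM (interaction 4.17 ± 0.19, adjusted p = 4.26e-21).

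Only the cKO course was called at 929 rising (5.06%) and 1004 falling genes (5.47%). Hsd11b2, the enzyme that inactivates glucocorticoids and is abundant in placenta and kidney, stayed at 3.69 to 5.69 CPM in all parental libraries. In cKO libraries it went from 1.77, 1.52 and 1.67 CPM to 61.5, 66.3 and 73.9 CPM (interaction 5.09 ± 0.23, adjusted p = 3.68e-21). Vgll1, a cofactor of TEAD factors (4.98 ± 0.42), and Atp2c2, a secretory pathway calcium pump (4.72 ± 0.27), came next among the ranked genes. Hpca, the neuronal calcium sensor hippocalcin, led the ranked falling ones: it stayed at 8.54 to 12.7 CPM in parental libraries and fell from 15.6, 15.8 and 16.6 CPM to 0.834, 0.347 and 0.445 CPM in cKO libraries (interaction -5.07 ± 0.23, adjusted p = 3.68e-21). Stac3 (-4.34 ± 0.35), Hdac9, a class IIa histone deacetylase (-3.72 ± 0.21), and Pank4 (-3.35 ± 0.15) followed.

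Courses that agreed included genes that changed a great deal. Wnt5a, a Wnt ligand of mesenchyme, rose by 5.53 ± 0.10 in parental and by 5.78 ± 0.20 in cKO cells, from 1.72, 1.87 and 1.35 to 76.2, 73.7 and 78.5 CPM and from 0.127, 0.292 and 0.468 to 17.1, 16.3 and 16.1 CPM. The cKO libraries were lower at both days. The interaction was 0.26 with a 95% interval of -0.46 to 0.98. Lgals3, the lectin galectin-3, rose by 4.69 ± 0.11 and by 4.60 ± 0.08, with the cKO libraries higher at both days. Its interval ran from -0.45 to 0.26. Phf11d, a PHD finger protein, fell by 5.06 ± 0.11 and by 4.75 ± 0.12 from nearly the same start, with an interval of -0.19 to 0.79.

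Kdr, the receptor VEGFR2 of early mesoderm and endothelium, had a large gap between the lines at both days and no called interaction. Parental libraries held 10.4, 11.1 and 9.27 CPM at day 2 and 211, 225 and 241 CPM at day 6, and cKO libraries held 0.634, 0.933 and 0.602 CPM at day 2 and 12.4, 13.1 and 13.1 CPM at day 6. The gap was -3.80 ± 0.17 at day 2 and -4.13 ± 0.07 at day 6, and the interaction was -0.34 ± 0.27 (adjusted p = 0.29, 95% interval -0.89 to 0.22). Cdh5, VE-cadherin, differed from Kdr: it rose from 0.769, 1.06 and 0.997 to 97.3, 89.9 and 83.6 CPM in parental cells and from 0.19, 0.292 and 0.401 to 282, 264 and 285 CPM in cKO cells (interaction 3.27 ± 0.36, adjusted p = 4.57e-10). The cKO cells were lower than parental cells at day 2 for both genes and higher at day 6 for Cdh5 alone. In the endothelium and blood list 11 of 21 interactions lay above 0, 2 lay below and 8, Kdr among them, were not called, beside 31.5% above and 32.0% below over all genes.

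The gap between the lines was called at 67.3% of all tested genes at day 2 and at 74.5% at day 6. The called interactions can also be sorted by what they did to this gap, as a description on the same libraries. The gap opened between day 2 and day 6 at 3075 genes (26.4% of the 11657), widened at 3010 (25.8%) and changed sign at 2819 (24.2%). It closed at 1586 and narrowed at 1092. Cdh1 and Cdh2 are widened gaps, Nefm, Stmn2, Isg15, Fgfbp1 and Peg10 are reversed ones.

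Features of whole libraries were read beside the contrast. Transcripts of ribosomal proteins took 4.24% to 4.38% of counts in parental and 5.67% to 5.9% in cKO libraries at day 2, and 2.88% to 2.95% and 2.86% to 3.09% at day 6, so this share fell further in cKO cells. Its part in the results was not tested. Mitochondrial transcripts took 0.996% to 1.65% in the 12 libraries. Genes on chromosome 11 had lower levels in cKO cells at both days (median gap -0.43 at day 2 and -0.42 at day 6), but their median interaction was -0.02, inside the range of -0.08 to 0.12 over the other autosomes.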

How the data were processed

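Total RNA of mouse ESCs was sequenced in 18 libraries, of which 12 enter the contrast. The authors deposited whole-number read counts per Ensembl gene in 1 table of 21995 genes, with no normalization. Per the submitters' processing notes, Novoalign, DESeq2 1.10.0 and the builds mm10 and GRCm38 were used, without their roles. How reads were counted, with which strand setting, and how multiply matching reads were treated is not given in the sources used here. Libraries were grouped by source label and columns matched by title.

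Genes passing filterByExpr (minimum count 10, minimum total 15) were tested with edgeR 4.0.16 in R 4.3.3: TMM factors, 1 coefficient per group over all 18 libraries, robust quasi-likelihood fit, Benjamini-Hochberg adjustment over 18352 genes within each contrast, called under 0.05. Standard errors came from the F statistic. CPM used the TMM-scaled library sizes. Opposite, size and single-course classes needed a called interaction. The script was tested on simulated data. Chi-square statistics of counts put no replicate pair within sampling noise.

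The members and the 25 gene lists were chosen with earlier results of these data known. Named genes followed a rule: Pou2f1, the markers, the largest absolute interactions of each class among genes with a mean of at least 1 log2 CPM, at least 10 counts in every group and courses without overlap, the largest shared changes, and each list's 4 or fewer best-ranked members by adjusted p; further members are named where a list is described. Not all genes of the rule are given. Positions are from GENCODE M21 (GRCm38) and promoters from RefSeq. Alternatives were DESeq2's size factors, no scaling factor, no count filter, DESeq2 1.42.0, a fit of 12 libraries, dropping single libraries, and a 2-fold minimum.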

Additional observations from a re-analysis of the deposited data

Results flagged for a closer look

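The effect of time differed between the genotypes, by the test of the interaction itself in edgeR, at 11657 of 18352 genes. The courses went opposite ways at 940 genes that fell in parental and rose in cKO cells and at 1314 genes that did the reverse.

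Of the genes named above, 26 went opposite ways by at least 2-fold in both lines. Those that rose in cKO cells, with their log2 interactions, include the interferon-inducible genes Isg15 (7.14) and Rsad2 (4.56) and the antigen-presenting gene H2-D1 (2.84). The epithelial genes among them were Cldn3 (4.46), Grhl2 (3.18), Spint1 (2.88), Cldn4 (2.78), Esrp1 (2.77), Spint2 (2.20) and Pkp3 (2.19). The others were Fgfbp1 (6.48), Zbtb16 (6.26), Bcl2l14 (5.0) and Slc2a1 (2.93).

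Those that fell in cKO cells include the neuronal genes Dcx (-7.67), Stmn2 (-7.65), Nefm (-6.43) and Nefl (-4.99). The mesenchymal genes were Mmp2 (-4.41), Twist1 (-3.78) and Ddr2 (-2.86). The others were Prmt8 (-7.84), Aox3 (-6.15), Ngfr (-5.49), Tmem45a (-5.21) and Fbln5 (-5.13). The genes were chosen by the size of their difference, so these values are a description. Of 25 tested neuron genes, 8 had an interaction below 0 and 10 above, beside 32.0% and 31.5% over all genes. The cKO libraries of Dcx overlapped between the days, and Nefm and Nefl share exon bases.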

How the results depend on the processing

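No count moved by over 1.5 times under DESeq2's size factors, no scaling factor, no count filter, DESeq2 (11400 interactions called), the fit of 12 libraries or leaving out any library (11297 to 11463 called). The balance of directions shifted. Called interactions above 0 numbered 6465, 5702, 6400, 6283 and 6526 with size factors, no scaling factor, no filter, DESeq2 and 12 libraries. Those below 0 numbered 5188, 5973, 5426, 5117 and 5342, beside 5777 above and 5880 below in the fit used above. The background shares of 31.5% and 32.0% are those of that fit. With a fold minimum of 2, which by construction keeps fewer genes, 5761 interactions remained past the threshold (2993 above 0 and 2768 below). The classes then held 955 (both up, more in cKO), 341 (both up, more in parental), 611 (both down, more in cKO), 614 (both down, more in parental), 423 and 303 (parental course only, up and down) and 471 and 462 genes (cKO course only, up and down). The courses then held 6894 parental and 8388 cKO genes. The order of the opposite classes depended on the setting: genes that rose in cKO cells numbered 1150, 1048, 1090, 1104 and 1203 with size factors, no scaling factor, no filter, DESeq2 and 12 libraries, and those that fell 1094, 1235, 1144, 1042 and 1148. The cause was not tested.

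Of 133 genes named, 119 kept their direction and call under every alternative, and 125 without any 1 library. The signs that changed belong to interactions that were not called: Lgals3 was 0 with size factors, and without 1 library it ran from -0.17 to 0.05, Wnt5a from -0.10 to 0.69, Postn from -0.37 to 0.06 and Afp from -0.01 to 0.45. Library sizes without a scaling factor moved the median parental course by -0.178 and the cKO course by -0.191. Depth limits genes near 1 CPM and below, such as Isg15 at its low days. No paired analysis was possible because the labels carry no replicate numbers: those printed were assigned in deposit order and pair nothing.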
